A study of Homo sapiens with 12 samples.

Results

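RNA-Seq data of the human iPSC line 201B7 were compared between Cond 3 and Cond 2, 2 culture conditions in which NANOG was lower than in the control. The 6 libraries compared were those of Cond 2 (3 libraries) and Cond 3 (3 libraries), out of 12 libraries in the series. In Cond 2, labelled low nutrient, the cells were cultured in StemFit, a defined iPSC medium, that had been heated at 56 °C for 30 min. In Cond 3, labelled differentiation, they were changed to DMEM with 10% FBS, 1% NEAA (non-essential amino acids) and 1% GlutaMax (a stable glutamine source). Cond 1, the control in unheated StemFit, supplied 3 more libraries as the common reference point. In Cond 4 (3 libraries), labelled physical stimulus, cells were pipetted 20 times at passaging and then cultured as the control. These libraries entered the joint fit of all 12 libraries behind the p-values from counts, but none of the comparisons. All of these cells came from the same established line, had been maintained in StemFit with the ROCK inhibitor Y-27632 on the laminin fragment iMatrix511, and were harvested on Day 5. Each condition took a separate well of a plate, and the authors call the 3 samples of a condition both technical replicates and a triplicate. The p-values therefore measure the spread between samples of 1 line, which may be technical. Serum medium was given on Day 4, 1 day before the harvest, whereas heated medium was given from an earlier day, on which the sources used here differ. Cond 3 thus differs from Cond 2 in the whole basal medium, in serum and in the time spent in the medium, and the parts played by these cannot be told apart. The RNA came from bulk cultures, in which fewer cells of a kind and less RNA per cell cannot be told apart.

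NANOG is a homeodomain transcription factor of the pluripotency network, whose other central members are OCT4 (gene POU5F1) and SOX2. In human cells this network is held in the primed state by FGF signalling through ERK and by NODAL or activin signalling through SMAD2/3. When these inputs weaken, cells leave the network towards neural or surface ectoderm, and BMP signalling through SMAD1/5 favours the surface fate. Amino acid shortage and other stresses act through a separate route, in which the translation of the transcription factor ATF4 switches on amino acid synthesis, transport and stress genes.

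Sequencing depth, as summed gene counts, ran from 18142616 to 21678335 for the Cond 2 libraries and from 18577119 to 21871503 for Cond 3. Tests used the quasi-likelihood test of edgeR on 17747 genes, and DEGs (differentially expressed genes) were required to pass an adjusted p-value of 0.05 and to change more than 2-fold. Levels are given as TPM, a transcript abundance scaled to a fixed total per library, which corrects for gene length and depth. Mitochondrial genes took 10.8%, 6.67% and 5.09% of the TPM in the 3 libraries of Cond 2 and 11.2%, 12.5% and 12% in those of Cond 3. All other TPM values of a library scale with what remains. The counts behind the edgeR values do not include the mitochondrial genes.

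Cond 3 differed from Cond 2 in 1557 genes, 8.77% of those tested. Expression was higher in Cond 3 for 1023 of these DEGs (5.76% of all genes tested) and lower for 534 (3.01%). Without a fold threshold, 19.0% of all genes were higher and 19.2% lower in Cond 3 at an adjusted p-value under 0.05, and the median log2 fold change over all genes was -0.0012. These shares are the background for the counts of list members given below. Among DEGs 65.7% were thus higher in Cond 3. That share was 55.7% when TPM values were tested with limma on the log2(TPM + 1) scale. Of the DEGs, 1228 were protein-coding and 256 were lncRNA genes. In 1502 DEGs the TPM values of the 2 conditions did not overlap, as was the case in 47.6% of all genes tested. The genes lowest in Cond 3 relative to Cond 2 included the homeodomain genes DLX5, DLX6, SIX3, RAX, HMX2 and HMX3, which pattern the early ectoderm. For SIX3, Cond 3 lay in the range of Cond 1, and Cond 2 lay far above both, as given below. The genes highest in Cond 3 relative to Cond 2 included secreted proteins (CCL26, POSTN, TNFAIP6, CXCL5) and receptor genes (RAMP1, GUCY2C). For GUCY2C, Cond 3 overlapped Cond 1, and Cond 2 lay below both, as given below.

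**Figure D1:**
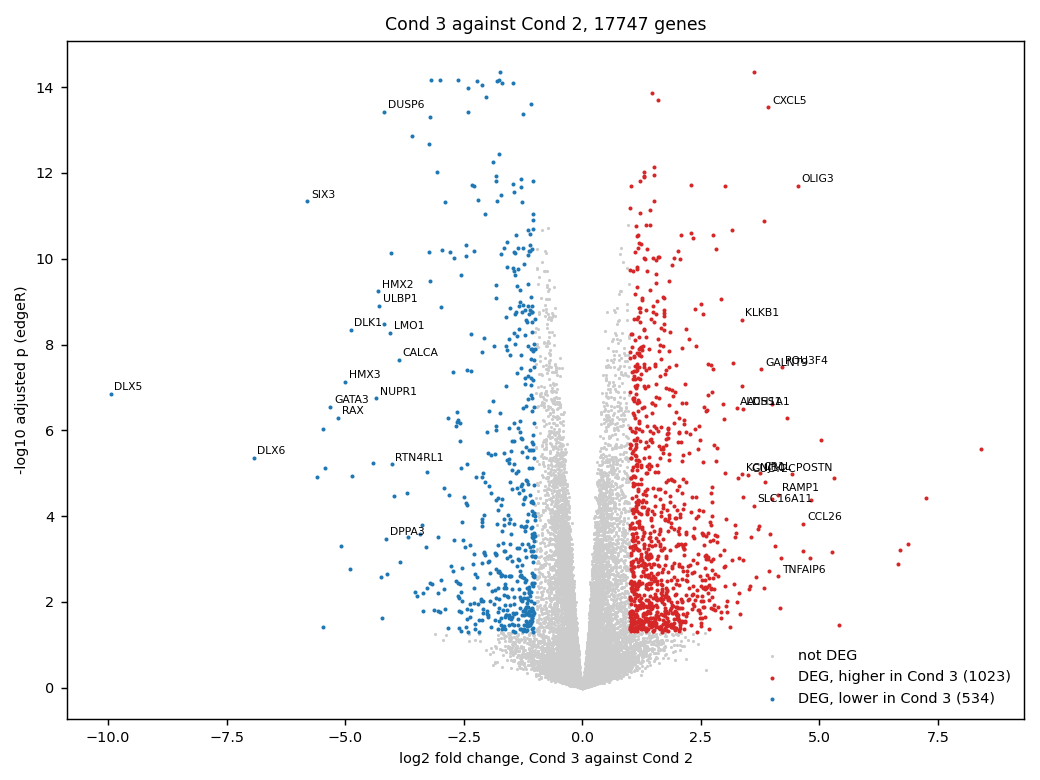
Log2 fold change of Cond 3 against Cond 2 (x axis) and -log10 of the adjusted p-value from edgeR (y axis) for the 17747 genes tested, with the DEGs in colour. The 1023 DEGs higher in Cond 3 lie to the right and the 534 lower DEGs to the left, and the labelled genes are the 15 protein-coding genes with the largest change in each direction under the rule for named genes.

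NANOG (ENSG00000111704) maps to chromosome 12 (7787794 to 7799146, forward strand) of GRCh38. Levels were 46.7, 47.2 and 43.6 in the 3 libraries of Cond 1, 20.2, 24 and 24.6 in Cond 2 and 9.93, 11.3 and 10.2 in Cond 3. Every library of Cond 3 lay below every library of Cond 2, and these in turn lay below Cond 1. The mean in Cond 2 was 2.19 times that in Cond 3, and Cond 3 against Cond 2 came to -1.07 on the log2 scale (standard error 0.087, adjusted p = 1.75e-09 from edgeR). The exact two-sided permutation test gave p = 0.1, the smallest value that 3 libraries against 3 allow. Of the 31-base words in the NANOG transcripts, 16.2% also occur on alternate haplotype sequences of the assembly.

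NANOG was lower in Cond 3 than in Cond 2, whereas more genes of the primed network were higher than lower there. Of 30 tested members, 16 were higher and 7 lower in Cond 3 at an adjusted p-value under 0.05, against 19.0% and 19.2% of all genes, and the median log2 fold change was 0.30. NANOG was the 1 DEG on the list that was lower in Cond 3, whereas 6 DEGs were higher. FOXD3, a forkhead repressor expressed in pluripotent cells and neural crest, had TPM values of 53.9, 53.6 and 44.3 in Cond 1, 8.82, 16.4 and 12.6 in Cond 2 and 47.3, 54.5 and 50.04 in Cond 3. It thus fell in Cond 2 and lay at the control level in Cond 3, a difference of 2.06 between Cond 3 and Cond 2 on the log2 scale (adjusted p = 9.97e-11). The tetraspanin CD9 was also low in Cond 2, at 30.6, 36.6 and 41.1 in Cond 2 and 96.1, 95.7 and 105 in Cond 3 with 82.3 as the mean of Cond 1 (log2 fold change 1.52, adjusted p = 7.43e-13). The telomere protein TERF1 was likewise low in Cond 2, at 102, 132 and 129.5 in Cond 2 and 274, 268 and 264 in Cond 3 against a Cond 1 mean of 247 (log2 fold change 1.21, adjusted p = 1.55e-12).

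TDGF1, the NODAL co-receptor also called CRIPTO, was below its Cond 1 mean of 1299 in both conditions, and its 679, 698 and 691 in Cond 3 exceeded the 351, 496 and 623 of Cond 2 (log2 fold change 0.56, adjusted p = 2.27e-04). The cell adhesion molecule EPCAM moved the other way, at 552, 604 and 625 in Cond 2 and 345, 337 and 322 in Cond 3 (log2 fold change -0.77, adjusted p = 7.37e-11). SOX2 was almost level between the conditions, at 1292, 1333 and 1287 in Cond 2 and 1259, 1272 and 1258 in Cond 3, a log2 difference of 0.01 (standard error 0.042, adjusted p = 0.853). POU5F1 was listed at 0.412, 0.789 and 0.576 in Cond 2 and 1.41, 1.14 and 1.04 in Cond 3, and its log2 fold change of 1.06 had an adjusted p-value of 0.071. Of its 31-base words, 86.8% also occur on alternate haplotype sequences, and their part in its low count was not tested.

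**Figure D2:**
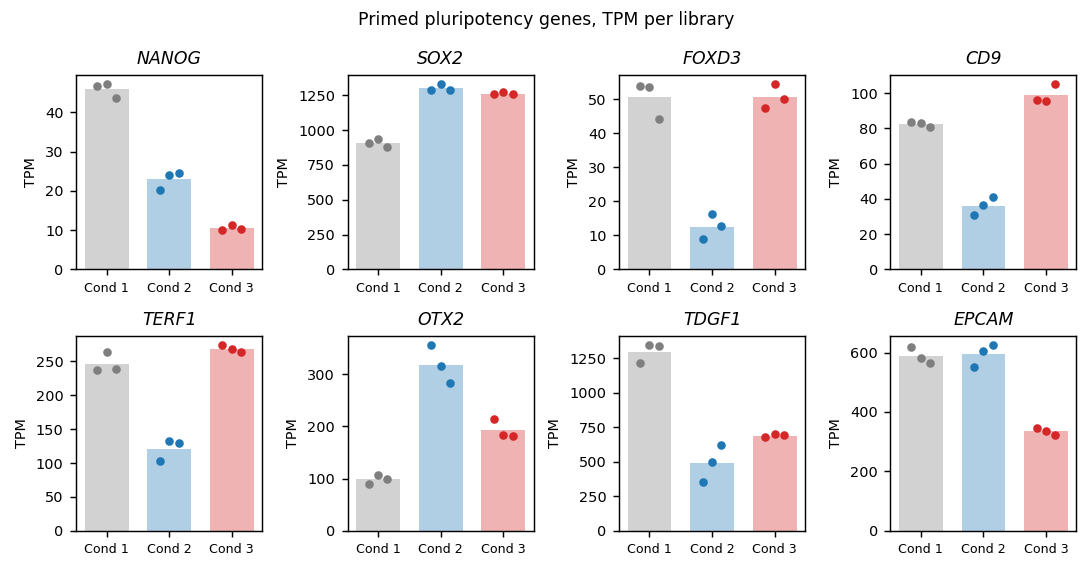
TPM per library (points) and mean (bars) of 8 genes of the primed pluripotency network in Cond 1, Cond 2 and Cond 3, with a separate axis starting at 0 for each gene. NANOG steps down from Cond 1 to Cond 2 to Cond 3, whereas FOXD3, CD9 and TERF1 are low in Cond 2 only and SOX2 lies at nearly the same height in Cond 2 and Cond 3.

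Higher levels in Cond 2 than in Cond 3 were frequent among transcription factors of the anterior neural plate, the part of the early ectoderm that forms forebrain and eye. Of 16 tested transcription factors on this list, 11 were lower and 2 higher in Cond 3, 10 of the lower genes were DEGs, and the median log2 fold change was -1.65. Of 7 secreted and membrane genes on it, 4 were lower and 2 higher, with a median of -0.35. Over both roles 15 of 23 genes were lower, and this was 8 of 14 when a TPM of at least 1 was required in all libraries, which leaves out genes under 1 TPM in any library. Of the transcription factors alone, 4 of 7 were then lower and 2 higher, with a median of -0.65. SIX3, a homeodomain factor of forebrain and eye, maps to chromosome 2 (44941702 to 44946071, forward strand). Levels in TPM were 0.736, 2.34 and 4.09 in Cond 1, 209, 155 and 109 in Cond 2 and 3.07, 3.03 and 2.01 in Cond 3. Cond 3 thus lay in the range of the control, and Cond 2 was far above both (log2 fold change of Cond 3 against Cond 2 -5.80, standard error 0.33, adjusted p = 4.55e-12). RAX, the retinal homeodomain factor, showed the same separation, at 14.5, 8.51 and 9.19 in Cond 2 and 0.351, 0.392 and 0.101 in Cond 3 (log2 fold change -5.15, adjusted p = 5.12e-07). The levels of DLK1, a secreted and membrane-bound NOTCH ligand relative, were 160.4, 95.2 and 113 in Cond 2 and 4.07, 3.27 and 4.67 in Cond 3 (log2 fold change -4.89, adjusted p = 4.49e-09).

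A second set of neural plate genes was above the control in both conditions but higher in Cond 2. LHX5, a LIM homeodomain factor of the forebrain, had TPM values of 4.27, 10.2 and 9.36 in Cond 1, 334, 244 and 207 in Cond 2 and 38.8, 23.3 and 34.8 in Cond 3. Its log2 fold change against Cond 1 was 4.97 (adjusted p = 2.98e-13) in Cond 2 and 2.01 (adjusted p = 6.06e-07) in Cond 3, 2 values that share the same control libraries. FEZF1, a zinc finger repressor of the forebrain, was at 148, 136 and 101 in Cond 2 and 69.95, 54.3 and 57.3 in Cond 3 against a Cond 1 mean of 5.99. The WNT antagonist FRZB was at 108, 95.3 and 61.8 in Cond 2 and 22.8, 18.9 and 19 in Cond 3 against 4.36 in Cond 1, and HESX1, a homeodomain repressor of the forebrain and pituitary, at 205, 174 and 137 in Cond 2 and 34.4, 31.1 and 24.7 in Cond 3 against 17. Between Cond 3 and Cond 2 these genes differed by -2.96 (LHX5), -1.03 (FEZF1), -2.07 (FRZB) and -2.46 (HESX1) on the log2 scale, each with an adjusted p-value under 0.05 and no overlap between libraries. N-cadherin (CDH2), the cadherin of neural epithelium, was at 112, 118 and 129.7 in Cond 2 and 53.1, 59.9 and 52 in Cond 3, and its Cond 1 mean was 61.5. It rose in Cond 2 (log2 fold change against Cond 1 0.87, adjusted p = 2.32e-09) and was slightly lower in Cond 3 than in the control (-0.19, adjusted p = 0.0375), with a log2 fold change of -1.06 between Cond 3 and Cond 2 (adjusted p = 5.87e-11).

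Members higher in Cond 3 were fewer. SOX3, a relative of SOX2 in neural progenitors, was at 56.2, 82.1 and 82.2 in Cond 2 and 136, 148 and 143 in Cond 3 (log2 fold change 1.02, adjusted p = 1.48e-08), SP8 at 6.44, 9.09 and 7.98 in Cond 2 and 16, 14 and 16.9 in Cond 3 (log2 fold change 1.05, adjusted p = 1.01e-06). For the neural adhesion molecule NCAM1 the values were 1.41, 1.39 and 1.35 in Cond 2 and 4.83, 4.14 and 4.35 in Cond 3 (log2 fold change 1.74, adjusted p = 4.81e-08). PAX6, a defining factor of later neural progenitors, stayed below 1 TPM in every library of these 3 conditions and did not differ beyond the threshold (log2 fold change -1.36, adjusted p = 0.14). HMX2 and HMX3, 2 neighbouring homeobox genes on chromosome 10, were also among the genes lowest in Cond 3 relative to Cond 2. HMX2 had values of 14.7, 14.9 and 20.3 in Cond 2 and 1, 1.01 and 0.347 in Cond 3 against a Cond 1 mean of 7.92 (log2 fold change of Cond 3 against Cond 2 -4.30, adjusted p = 5.71e-10). The transcription cofactor LMO1 had values of 60.7, 35.8 and 34 in Cond 2 and 2.78, 3.43 and 1.33 in Cond 3 (log2 fold change -4.05, adjusted p = 5.29e-09).

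Transcription factors of the surface ectoderm and amnion were also higher in Cond 2. DLX5 and DLX6, distal-less homeobox genes that lie beside each other on chromosome 7 (DLX5 from 97020396 to 97024950, DLX6 from 97005553 to 97011040), changed together. DLX5 had TPM values of 26.3, 9.44 and 5.24 in Cond 2 and was listed at 0 in all 3 libraries of Cond 3. Over the 3 libraries 370 reads were counted in Cond 2 and 0 in Cond 3, which makes the level in Cond 2 at least 128-fold higher against a floor of 3 counts over the group (adjusted p = 1.39e-07 from edgeR). DLX6 had values of 4.82, 2.69 and 1.51 in Cond 2, and 162 reads stood against 1 in Cond 3, a ratio of 169 with a 95% counting interval from 29.9 to 6705. This interval covers counting error only. The zinc finger factor GATA3 had values of 12.1, 6.29 and 3.97 in Cond 2 and 0.0961, 0.108 and 0.333 in Cond 3 (log2 fold change -5.31, adjusted p = 2.82e-07), and TFAP2A, the AP-2 factor of surface ectoderm and neural crest, 5.88, 4.67 and 2.2 in Cond 2 and 0.516, 0.667 and 0.894 in Cond 3 (log2 fold change -2.57, adjusted p = 7.51e-06). In each of these 4 genes library 1 of Cond 2 was the highest and library 3 the lowest, and the groups did not overlap. For DLX5, DLX6 and GATA3 the rule for named genes requires this, and 47.6% of all genes tested had no overlap.

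Over the whole list, 9 of 18 tested genes were lower and 4 higher in Cond 3, with a median log2 fold change of -0.53. The 11 transcription factors tested held 8 lower genes, 6 of them DEGs, and 0 higher genes, with a median of -1.76. Of the 7 structural and secreted genes tested, 1 was lower and 4 were higher, 3 of them DEGs, with a median of 0.23. With a TPM of at least 1 required in all libraries, 3 of 7 genes of the list were lower, and with limma on TPM values 2 of 7. Of the transcription factors alone, 3 passed this filter. Of these, 2 were lower (median -0.66), and 1 with limma. The test on counts also takes genes with reads in a single condition, so members can enter the count through the condition where they are high. Keratins of simple epithelia were expressed in both conditions. KRT18 had values of 243, 226 and 276 in Cond 2 and 173, 187 and 189 in Cond 3 (log2 fold change -0.38, adjusted p = 5.09e-04), whereas KRT8 was slightly higher in Cond 3 (log2 fold change 0.23, adjusted p = 0.00218) and KRT19 did not pass the test (log2 fold change -0.02, adjusted p = 0.781). GABRP, a GABA receptor subunit of amnion and epithelia, was higher in Cond 3, at 2.4, 2.53 and 2.77 against 0.471, 0.227 and 0.18 in Cond 2, and highest in Cond 1 at 5.85, 7.89 and 6.02.

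**Figure D3:**
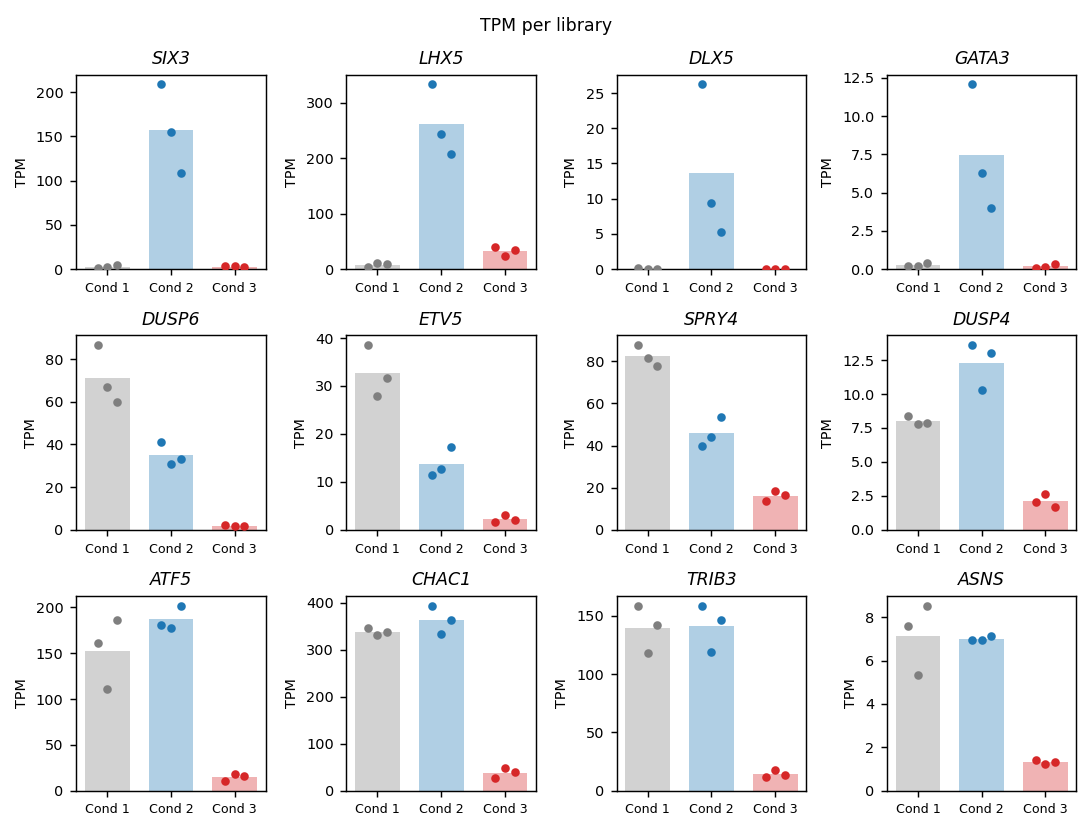
TPM per library (points) and mean (bars) of 12 genes in Cond 1, Cond 2 and Cond 3, with a separate axis starting at 0 for each gene. The upper row (neural plate and surface ectoderm factors SIX3, LHX5, DLX5 and GATA3) is highest in Cond 2. The middle row (DUSP6, ETV5, SPRY4 and DUSP4 of the FGF/ERK list) and the lower row (ATF5, CHAC1, TRIB3 and ASNS of the amino acid response) are lowest in Cond 3.

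Known targets and inhibitors of FGF/ERK signalling were lower in Cond 3 than in Cond 2. Of 30 tested genes on the FGF/ERK list, 23 were lower and 1 was higher, with a median log2 fold change of -0.47. Of 9 ligands and receptors 4 were lower, 0 of them DEGs, with a median of -0.14. Of 11 ETS factors and targets 10 were lower, 6 of them DEGs, with a median of -1.03. They include EPHA4, which lay above its Cond 1 mean in both conditions, as given below. The summed level of this role was between 837 and 927 TPM in Cond 1, 944 and 1082 in Cond 2 and 451 and 662 in Cond 3. Of 10 feedback inhibitors 9 were lower, 5 of them DEGs, with a median of -0.81. Their summed level was between 372 and 415 TPM in Cond 1, 277 and 320 in Cond 2 and 142 and 161 in Cond 3. The difference between these roles was not tested. DUSP6, the phosphatase that inactivates ERK and is itself induced by it, had TPM values of 86.7, 67.1 and 60.1 in Cond 1, 41, 30.7 and 33.1 in Cond 2 and 2.2, 1.7 and 1.61 in Cond 3. It fell in 2 steps, and the mean in Cond 2 was 19 times that in Cond 3 (log2 fold change of Cond 3 against Cond 2 -4.18, standard error 0.18, adjusted p = 3.73e-14).

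The ETS factor ETV5, induced by FGF, went from a Cond 1 mean of 32.7 to 11.3, 12.6 and 17.3 in Cond 2 and 1.61, 3.1 and 2.02 in Cond 3 (log2 fold change -2.56, adjusted p = 2.41e-10). The feedback inhibitor SPRY4 followed the same steps, at 39.8, 44.1 and 53.7 in Cond 2 and 13.8, 18.6 and 16.4 in Cond 3 from 82.5 in Cond 1 (log2 fold change -1.44, adjusted p = 7.08e-11). DUSP4, a nuclear ERK phosphatase, was at 13.6, 10.3 and 13 in Cond 2 and 2.09, 2.66 and 1.68 in Cond 3 with a Cond 1 mean of 8.02 between them (log2 fold change -2.46, adjusted p = 8.55e-11). SPRY2 had values of 64.3, 58.7 and 62.9 in Cond 2 and 24, 30.2 and 28 in Cond 3 (log2 fold change -1.12, adjusted p = 1.96e-09), and the growth regulator MYC 41.2, 31.3 and 39.1 in Cond 2 and 15.1, 21.3 and 16.3 in Cond 3 (log2 fold change -1.03, adjusted p = 2.83e-07). The immediate-early gene EGR1 was at 321, 274 and 353 in Cond 2 and 152, 113 and 54.5 in Cond 3 (log2 fold change -1.51, adjusted p = 3.05e-06). FOS, another immediate-early gene, was at 46.3, 33.1 and 34.3 in Cond 2 and 106, 39.2 and 9.76 in Cond 3 (log2 fold change 0.51, adjusted p = 0.462). FGF2, the ligand added to most iPSC media, was itself expressed at a mean of 129.7 in Cond 2 and 113 in Cond 3 (log2 fold change -0.14, adjusted p = 0.0384), a call that was lost when any of 4 single libraries was left out.

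On the NODAL/SMAD2/3 list 13 of 21 tested genes were lower and 2 higher, with a median log2 fold change of -0.59. Of 9 inhibitors and targets, 8 were lower, as were 4 of 7 receptors and transducers and 1 of 5 ligands and co-receptors, of which 2 were higher. LEFTY1 and LEFTY2, related secreted inhibitors of NODAL whose sequences are close enough for reads to be shared, had values of 4.19, 1.85 and 1.21 and of 13.7, 8.35 and 10.7 in Cond 2. In Cond 3 they were at 0.259, 0.676 and 0.299 and at 1.93, 3.91 and 3.96, with log2 fold changes of -2.48 (adjusted p = 5.11e-04) and -1.69 (adjusted p = 3.99e-05). SMAD7, an inhibitor induced by both branches of the SMAD pathway, was raised in Cond 2 at 58.9, 42.6 and 33 and lowered in Cond 3 at 9.57, 15.2 and 11.1 around a Cond 1 mean of 22.9 (log2 fold change of Cond 3 against Cond 2 -1.86, adjusted p = 1.10e-08). The transcription factor FOXH1, partner of SMAD2/3, was at 179, 158 and 190.3 in Cond 2 and 114, 106 and 116 in Cond 3 (log2 fold change -0.59, adjusted p = 1.23e-06). NODAL itself was low in both, at 2.22, 1.24 and 3.43 in Cond 2 and 1.35, 1.4 and 1 in Cond 3, and the difference did not pass the test (log2 fold change -0.79, adjusted p = 0.183). The largest fall on the list was in INHBE, a liver-type inhibin beta subunit, from 66.5, 61.5 and 69.2 in Cond 2 to 8.63, 8.51 and 6.37 in Cond 3 (log2 fold change -3.003, adjusted p = 6.96e-15). INHBE was the 1 lower gene among the ligands and co-receptors.

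On the BMP/SMAD1/5 list 13 of 25 tested genes were lower in Cond 3 and 2 higher, against 19.2% and 19.0% of all genes. The median log2 fold change of the list was -0.49. Among the ligands BMP4 was at 24, 19.9 and 17.5 in Cond 2 and 9.81, 9.91 and 12.2 in Cond 3 (log2 fold change -0.89, adjusted p = 5.62e-04), and BMP7 at 32.6, 30.8 and 28.8 in Cond 2 and 10.7, 12 and 13.4 in Cond 3 (log2 fold change -1.30, adjusted p = 1.72e-08). BMP2 was higher in Cond 3, at 31.5, 29.1 and 26.9 against 13, 16.9 and 16.9 in Cond 2 (log2 fold change 0.97, adjusted p = 1.49e-06). The ID genes encode inhibitory helix-loop-helix factors induced by BMP. ID1 was at 1289, 1205 and 1072 in Cond 2 and 614, 729 and 744 in Cond 3 around a Cond 1 mean of 835, and ID4 at 171, 151 and 127 in Cond 2 and 56.2, 68.3 and 58.5 in Cond 3 above a Cond 1 mean of 35.8. Their log2 fold changes between Cond 3 and Cond 2 were -0.72 (adjusted p = 3.19e-07) and -1.24 (adjusted p = 1.20e-09). ID2 did not differ between them beyond the threshold (log2 fold change -0.30, adjusted p = 0.102). It passed the test in the same direction without the filter on low counts (adjusted p = 0.00487) and without replicate 3 of Cond 2 (log2 fold change -0.45, adjusted p = 0.0113). NOG, which encodes the BMP antagonist noggin, was at 3.14, 4.16 and 7.79 in Cond 2 and 1.47, 0.965 and 0.299 in Cond 3 (log2 fold change -2.36, adjusted p = 4.63e-04), while the antagonist chordin (CHRD) was higher in Cond 3 (log2 fold change 1.23, adjusted p = 7.78e-04).

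Nearly all genes of the amino acid response of ATF4 were lower in Cond 3. Of 35 tested genes, 33 were lower and 2 higher in Cond 3, 24 were lower DEGs, and the median log2 fold change was -1.29. The summed level of the list was between 8751 and 9691 TPM in Cond 2 and between 4196 and 4279 TPM in Cond 3, while it was between 8330.1 and 9155 TPM in Cond 1. The ranges of Cond 2 and Cond 1 overlapped, and Cond 3 lay below both. All 7 transcription factors tested were lower, and so were all 9 inhibitors and secreted factors tested. ATF5 had TPM values of 161, 111 and 186 in Cond 1, 181, 178 and 202 in Cond 2 and 10.7, 18.1 and 15.8 in Cond 3 (log2 fold change of Cond 3 against Cond 2 -3.60, adjusted p = 1.38e-13). DDIT3, which encodes the stress factor CHOP, had values of 76.3, 64.3 and 72.3 in Cond 2 and 7.12, 6.57 and 8.22 in Cond 3 (log2 fold change -3.22, adjusted p = 5.03e-14).

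The pseudokinase TRIB3 was at 159, 119 and 147 in Cond 2 and 12.1, 17.5 and 13.9 in Cond 3 (log2 fold change -3.23, adjusted p = 2.11e-13), and CHAC1, an enzyme that degrades glutathione, at 395, 335 and 364 in Cond 2 and 27.4, 48.2 and 39.3 in Cond 3 (log2 fold change -3.20, adjusted p = 6.96e-15). The cystine transporter SLC7A11 had values of 56.2, 71.3 and 71.3 in Cond 2 and 13.1, 14.9 and 13 in Cond 3 (log2 fold change -2.21, adjusted p = 7.38e-15). Enzymes fell as well. The serine pathway enzyme PSAT1, abundant in these cells, was at 1679, 1857 and 1969.9 in Cond 2 and 537, 562 and 533 in Cond 3 (log2 fold change -1.69, adjusted p = 8.02e-15). Asparagine synthetase (ASNS) had values of 6.95, 6.97 and 7.12 in Cond 2 and 1.43, 1.23 and 1.31 in Cond 3 (log2 fold change -2.34, adjusted p = 5.65e-09). The exceptions were SLC38A2, a neutral amino acid transporter (log2 fold change 0.18, adjusted p = 0.00454), and ALDH18A1, an enzyme of proline synthesis (log2 fold change 0.23, adjusted p = 0.00216), which were slightly higher in Cond 3. The SLC38A2 difference did not pass the test with limma on log2(TPM + 1) (0.12, adjusted p = 0.088). The mRNA of ATF4 itself, which has no count row, was at 682, 688 and 667 TPM in Cond 2 and 551, 533 and 518 in Cond 3 (difference of log2(TPM + 1) -0.35, adjusted p = 7.22e-05 from limma). Cytosolic aminoacyl-tRNA synthetases, many of which ATF4 also induces, shared the direction, with 11 of 19 tested lower, 0 higher and a median of -0.44.

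ATF4 acts through a composite element with the letters TGATGNAA. In the RefSeq promoters of GRCh38.p14, windows from 250 bases before to 50 bases after the start, this motif occurs on either strand in 1003 of 27305 promoters (3.67%) and in 6 of the 30 promoters matched to the list. Among the lower DEGs of the list, 4 of 19 matched promoters held it. The upstream parts of these 4 promoters follow in 5′ to 3′ direction of the gene, since they belong to genes that moved together, with the motif in capitals. In CHAC1 and FGF21 it lies on the opposite strand and reads in reverse complement. A match is a description of the letters and not a measured binding site.
CHAC1 (chr15:40953221-40953329, forward strand): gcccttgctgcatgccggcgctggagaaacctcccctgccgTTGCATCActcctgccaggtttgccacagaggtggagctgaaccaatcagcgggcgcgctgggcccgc
ASNS (chr7:97872409-97872536, reverse strand): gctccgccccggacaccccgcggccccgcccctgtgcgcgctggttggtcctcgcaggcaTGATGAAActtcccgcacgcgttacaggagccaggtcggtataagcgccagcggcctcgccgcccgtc
FGF21 (chr19:48755410-48755523, forward strand): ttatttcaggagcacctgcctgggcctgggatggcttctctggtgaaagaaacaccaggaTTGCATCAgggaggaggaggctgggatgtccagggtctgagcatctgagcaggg
ATF3 (chr1:212565157-212565283, forward strand): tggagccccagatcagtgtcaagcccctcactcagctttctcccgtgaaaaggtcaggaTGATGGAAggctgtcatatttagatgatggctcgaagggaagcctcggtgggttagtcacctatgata

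FGF21, a hormone of nutrient stress, had TPM values of 9.78, 7.19 and 8.37 in Cond 2 and 2.48, 0.833 and 1.72 in Cond 3 (log2 fold change -2.24, adjusted p = 1.21e-05), and the stress factor ATF3 84.9, 78.7 and 84.8 in Cond 2 and 17.7, 17.5 and 19.9 in Cond 3 (log2 fold change -2.12, adjusted p = 9.00e-15). In all 4 genes, CHAC1 and ASNS included, every library of Cond 3 lay below every library of Cond 2. These genes were chosen as lower DEGs, and 1502 of the 1557 DEGs and 47.6% of all genes tested had no overlap. The separation thus describes the choice and not the motif. The sterol element TCACNCCAC was found in 1.15% of all promoters and in 1 of 27 matched to the sterol list, and the BMP element TGGCGCC in 5.96% of all promoters and in 0 of 25 matched to the BMP list.

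Genes known to respond to serum through YAP and SRF were mostly lower in the serum medium. On the list of YAP and SRF targets and matrix regulators 21 of 32 tested genes were lower in Cond 3 and 5 higher, with a median log2 fold change of -0.59. CCN2, a secreted matrix protein and YAP target, had TPM values of 492, 458 and 443 in Cond 1, 403, 396 and 435 in Cond 2 and 97.9, 148 and 114 in Cond 3 (log2 fold change -1.72, adjusted p = 3.21e-12). Thrombospondin 1 (THBS1), a secreted matrix protein, was at 69.4, 64.9 and 81 in Cond 2 and 18.3, 19.9 and 18.1 in Cond 3 with a Cond 1 mean of 41.7 between them (log2 fold change -1.87, adjusted p = 5.60e-13). The focal adhesion protein vinculin (VCL) had values of 427, 436 and 464 in Cond 2 and 198, 206 and 196 in Cond 3 (log2 fold change -1.09, adjusted p = 2.48e-14). Both chains of type I collagen, the main fibrillar collagen of connective tissue, rose in Cond 3 instead. COL1A1 was at 157, 190.5 and 202 in Cond 2 and 454, 435 and 419 in Cond 3 (log2 fold change 1.31, adjusted p = 1.22e-12), COL1A2 at 36.2, 36.5 and 40.1 in Cond 2 and 112, 106 and 111 in Cond 3 (log2 fold change 1.60, adjusted p = 2.01e-14). Another fibrillar collagen, COL3A1, did not pass the test, at 0.494, 0.334 and 0.549 in Cond 2 and 0.695, 0.268 and 0.387 in Cond 3 (log2 fold change 0.04, adjusted p = 0.969). POSTN, a matrix protein of mesenchyme, was at 0, 0.16 and 0.19 in Cond 2 and 2.42, 3.28 and 1.79 in Cond 3 (log2 fold change 4.43, adjusted p = 1.06e-05).

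The zinc list holds metallothioneins, small zinc-binding proteins with near-identical genes that can share reads, and transporters of the SLC30 family. Of 9 tested genes on it, 6 were lower and 0 higher in Cond 3 (median log2 fold change -1.12), against 19.2% and 19.0% of all genes. The lower genes were the metallothioneins MT1E, MT1F, MT1G and MT1X and the SLC30 family members SLC30A1 and SLC30A10. With a TPM of at least 1 required in all libraries, 2 of 4 were lower. MT1G was at 24, 43.7 and 50.1 in Cond 2 and 0.653, 9.01 and 5.53 in Cond 3 (log2 fold change -2.91, adjusted p = 2.20e-05), while MT1H (log2 fold change -0.81, adjusted p = 0.139) and MT2A (log2 fold change -0.15, adjusted p = 0.587) did not pass the test. CYP26A1, the enzyme that breaks down retinoic acid and is induced by it, had TPM values of 14.4, 23.9 and 19.3 in Cond 1, 181, 177 and 190.2 in Cond 2 and 31.8, 16.5 and 22.4 in Cond 3 (log2 fold change of Cond 3 against Cond 2 -2.89, adjusted p = 4.70e-12). ALDH1A1, an enzyme that makes retinoic acid, had the opposite order, at 2.81, 4.18 and 2.1 in Cond 1, 0.488, 0.555 and 1.17 in Cond 2 and 6.38, 6.43 and 7.43 in Cond 3 (log2 fold change 3.26, adjusted p = 3.04e-07). CRABP2, a carrier of retinoic acid, was at 1737, 1774 and 1764 in Cond 2 and 1094, 858 and 937 in Cond 3 (log2 fold change -0.81, adjusted p = 8.83e-09). Over the retinoic acid list 6 of 16 tested genes were higher and 4 lower, against 19.0% and 19.2% of all genes.

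**Figure D4:**
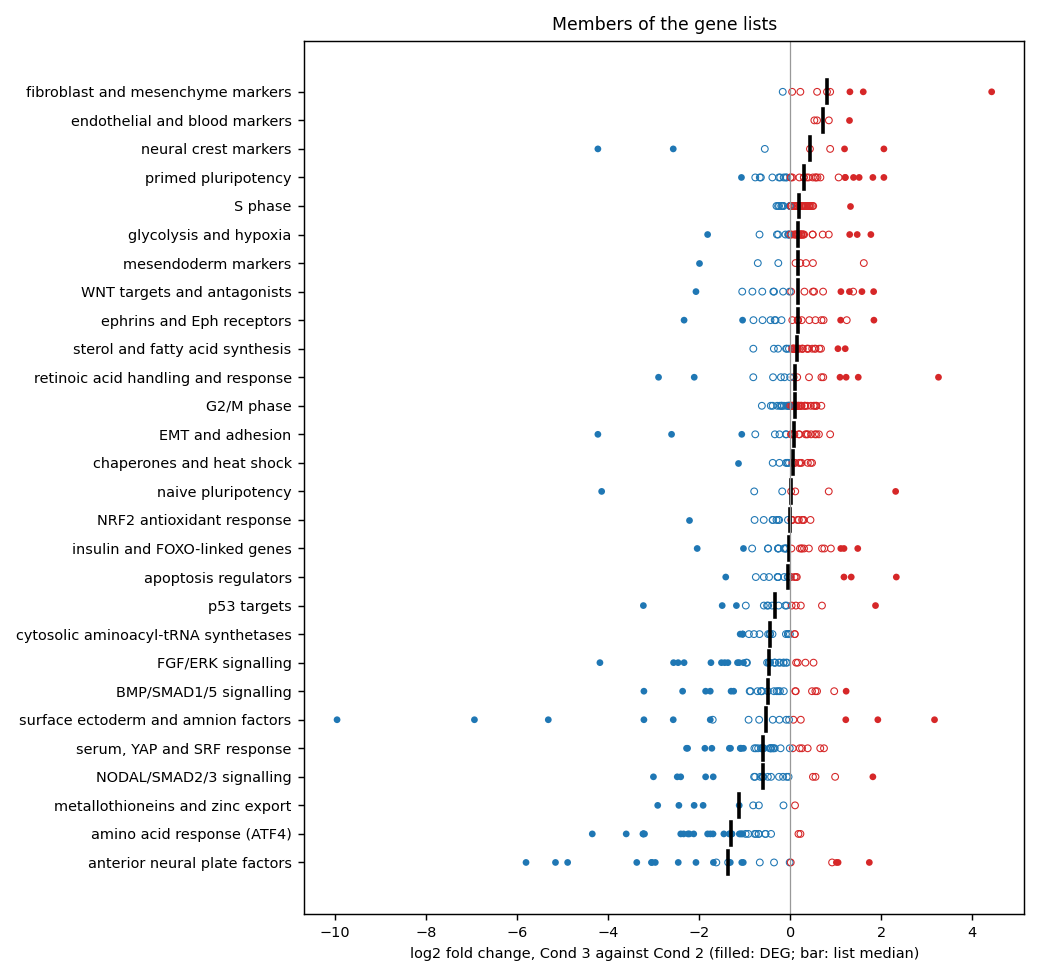
Log2 fold change of Cond 3 against Cond 2 (x axis) for each tested member of 28 gene lists (rows), with DEGs filled, other genes open and the list median as a vertical bar. The amino acid response, neural plate and FGF/ERK lists lie mostly left of 0 and the primed pluripotency list mostly right of it, while the cell cycle lists stay close to 0.

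Metabolic and growth genes mostly changed by less than 2-fold. Of 31 glycolysis and hypoxia genes 14 were higher and 4 lower in Cond 3 (median log2 fold change 0.18). Pyruvate kinase (PKM) had TPM values of 462, 499 and 435 in Cond 1, 212, 245 and 269 in Cond 2 and 647, 628 and 655 in Cond 3 (log2 fold change 1.47, adjusted p = 1.36e-14), and lactate dehydrogenase A (LDHA) was at 87.5, 102 and 106 in Cond 2 and 250.4, 217 and 234 in Cond 3 (log2 fold change 1.31, adjusted p = 1.17e-12). VEGFA, a HIF target that also stands on the amino acid response list, was lower in Cond 3, at 20.04, 18.7 and 19.8 against 77.6, 67.9 and 68.4 in Cond 2. TXNIP, a glucose-responsive regulator of glucose uptake, was at 185, 257 and 256 in Cond 2 and 66.9, 43.7 and 51.6 in Cond 3 (log2 fold change -2.04, adjusted p = 9.28e-12). Of 32 sterol and fatty acid genes 14 were higher and 1 lower (median 0.15). For this list and the glycolysis list the shares over all genes were 19.0% higher and 19.2% lower.

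Over all genes tested, 19.0% were higher and 19.2% lower in Cond 3. For the cell cycle, 20 of 39 S phase genes were higher and 5 lower (median 0.20), and 17 of 49 G2/M genes were higher and 6 lower (median 0.10). The 1 DEG among them was UHRF1, which recruits the maintenance DNA methyltransferase, at 61.4, 62.5 and 61.5 in Cond 2 and 158, 138 and 145 in Cond 3 (log2 fold change 1.31, adjusted p = 9.57e-13). Among 16 p53 targets 9 were lower and 3 higher, led by GDF15, a stress cytokine shared with the amino acid response list, at 54, 77.1 and 104 in Cond 2 and 7.35, 9.19 and 7.49 in Cond 3, and by the cell cycle inhibitor CDKN1A at 18.5, 43.1 and 54.2 in Cond 2 and 13.2, 12 and 14.1 in Cond 3. Of the ephrin and Eph genes 8 of 20 were higher and 5 lower, and EPHA4 had the largest change, at 71.7, 68.7 and 52 in Cond 2 and 13.5, 11.5 and 11.7 in Cond 3 against a Cond 1 mean of 7.37 (log2 fold change -2.33, adjusted p = 1.88e-12). Among WNT genes 5 of 18 were higher (27.8%) and 2 lower (11.1%), near the shares over all genes. The feedback target AXIN2 was at 15.3, 15.4 and 16.9 in Cond 2 and 34.2, 32 and 32.6 in Cond 3 (log2 fold change 1.11, adjusted p = 6.68e-10), and the ligand WNT5A at 3.83, 3.79 and 3.34 in Cond 2 and 14.5, 12.2 and 10.9 in Cond 3 (log2 fold change 1.83, adjusted p = 3.42e-08).

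In 6 further lists genes moved in both directions or few moved. The shares over all genes were 19.0% higher and 19.2% lower. Members higher and lower in Cond 3 numbered 6 and 2 of 16 for chaperones, 4 and 7 of 18 for the NRF2 antioxidant response, and 10 and 7 of 24 for insulin and FOXO genes. They numbered 6 and 5 of 22 for epithelial-mesenchymal transition, 3 and 6 of 18 for apoptosis regulators, and 1 and 2 of 7 for naive pluripotency. On the last list DPPA3, a maternal and germ cell factor, was at 4.68, 3.5 and 4.72 in Cond 2 and 0.297, 0.332 and 0 in Cond 3 (log2 fold change -4.14, adjusted p = 3.39e-04), and the nuclear receptor NR5A2 moved the other way, at 0.472, 0.255 and 0.11 in Cond 2 and 1.56, 1.21 and 1.3 in Cond 3 (log2 fold change 2.32, adjusted p = 3.49e-05).

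Markers of other cell types were checked over whole lists, beside 19.0% of all genes higher and 19.2% lower in Cond 3. Mesendoderm markers summed to between 32.9 and 38.6 TPM in Cond 2 and between 23.8 and 31.5 TPM in Cond 3, 1 of 8 tested was lower, and SOX17, FOXA2 and GATA4 were listed at 0 in all 6 libraries. The marker lower in Cond 3 than in Cond 2 was HHEX, at 11.8, 17.4 and 11.3 in Cond 2 and 2.85, 3.33 and 3.51 in Cond 3. Fibroblast and mesenchyme markers summed to between 347 and 411 TPM in Cond 2 and between 666 and 706 TPM in Cond 3. Of 9 tested on counts 4 were higher (COL1A1, COL1A2, COL6A3 and POSTN) and 0 lower. FBLN1, a matrix protein with no count row, was lower, at 139.6, 136 and 154 in Cond 2 and 122.9, 110 and 120.2 in Cond 3 (difference of log2(TPM + 1) -0.28, adjusted p = 0.0113 from limma). DCN, FAP and PRRX1, defining genes of fibroblasts, were listed at 0 in all 6 libraries. COL3A1 and FBLN1 were chosen after their values were seen. Endothelial and blood markers summed to between 58.8 and 66.1 TPM in Cond 2 and between 92.5 and 105 TPM in Cond 3, with 3 of 4 tested higher. Their sum in Cond 1 was between 83.8 and 98.1 TPM, which overlapped Cond 3 and lay above Cond 2. Of the 10 markers, 7 were under 1 TPM in all 6 libraries. Neural crest markers summed to between 103 and 114 TPM in Cond 2 and between 147 and 151 TPM in Cond 3, with 3 of 7 tested higher, among them FOXD3, and 3 lower. In Cond 1 the sums were between 14.9 and 26 TPM for mesendoderm, 406 and 419 TPM for fibroblast and 116 and 131 TPM for neural crest markers. The primed pluripotency list summed to between 17140.1 and 19559 TPM in Cond 2 and between 19165 and 20473 TPM in Cond 3 and between 19287 and 20009.7 TPM in Cond 1.

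The 15 protein-coding genes highest in Cond 3 relative to Cond 2 under the rule for named genes included several low transcripts. OLIG3, a helix-loop-helix factor of the dorsal neural tube, maps to chromosome 6 (137492199 to 137494394, reverse strand). Levels in TPM were 3.1, 3.41 and 2.75 in Cond 1, 0.773, 1.28 and 1.82 in Cond 2 and 34.7, 26.8 and 26.1 in Cond 3 (log2 fold change of Cond 3 against Cond 2 4.55, standard error 0.25, adjusted p = 2.01e-12). The chemokine CCL26 was at 0, 0.992 and 0 in Cond 2 and 7.4, 8.8 and 12.3 in Cond 3 (log2 fold change 4.66, adjusted p = 1.51e-04). KLKB1, which encodes plasma kallikrein, was at 1.29, 2.34 and 1.21 in Cond 2 and 16.2, 17.6 and 14.8 in Cond 3 (log2 fold change 3.36, adjusted p = 2.66e-09). GALNT9, a glycosyltransferase, was at 0.412, 0.0971 and 0.518 in Cond 2 and 5.5, 3.04 and 4.81 in Cond 3 (log2 fold change 3.78, adjusted p = 3.74e-08). KCNJ10, a potassium channel of glia, was at 0.253, 0.308 and 0.199 in Cond 2 and 2.22, 1.93 and 3.59 in Cond 3 (log2 fold change 3.37, adjusted p = 1.05e-05), and TNFAIP6, a matrix-binding protein induced in inflammation, at 0, 0.444 and 0 in Cond 2 and 1.66, 3.36 and 3.82 in Cond 3 (log2 fold change 4.14, adjusted p = 0.00252). In CCL26, KLKB1, GALNT9, KCNJ10 and TNFAIP6 the libraries of Cond 2 overlapped those of Cond 1, and those of Cond 3 lay above both. The separation from Cond 2 is required by the rule for named genes.

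GUCY2C, the guanylate cyclase receptor of the gut, was at 2.17, 3.49 and 2.32 in Cond 1, 0, 0.209 and 0.297 in Cond 2 and 1.17, 1.66 and 2.83 in Cond 3 (log2 fold change of Cond 3 against Cond 2 3.50, adjusted p = 1.12e-05). CR1L, a complement receptor relative, was at 2.62, 2.07 and 3.58 in Cond 1, 0.214, 0 and 0.45 in Cond 2 and 2.59, 2.97 and 2.93 in Cond 3 (log2 fold change 3.75, adjusted p = 1.01e-05). Among the 15 genes lowest in Cond 3 relative to Cond 2, some were not yet described. NUPR1, a stress-induced chromatin protein of the amino acid response list, was at 2.2, 3.24 and 2.67 in Cond 2 and 0.288, 0.0644 and 0 in Cond 3. ULBP1, a ligand of the natural killer receptor NKG2D, was at 5.18, 4.47 and 6.46 in Cond 2 and 0.254, 0.398 and 0.117 in Cond 3. The neuropeptide gene CALCA was at 9.39, 8.97 and 9.95 in Cond 2 and 0.997, 0.343 and 0.443 in Cond 3, and RTN4RL1, a receptor relative of the Nogo receptor, at 2.14, 2.66 and 3.85 in Cond 2 and 0.0903, 0.303 and 0.104 in Cond 3. Their log2 fold changes were -4.35, -4.28, -3.87 and -4.02, each with an adjusted p-value under 0.05. NUPR1, ULBP1 and CALCA were level between Cond 1 and Cond 2, with log2 fold changes of 0.52, -0.03 and 0.09 that did not pass the test, whereas RTN4RL1 had risen in Cond 2 (2.73, adjusted p = 3.11e-04).

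A small set of genes moved in opposite directions from the control. A gene was counted when it was a DEG of Cond 2 against Cond 1 and of Cond 3 against Cond 1 with opposite signs. Both contrasts share the 3 control libraries, and the difference between Cond 3 and Cond 2 in these genes follows from the choice and is given as a description. Of 17747 genes, 28 (0.158%) were lower in Cond 2 and higher in Cond 3 than in Cond 1, and 3 (0.0169%) were higher in Cond 2 and lower in Cond 3. The 31 genes were 26 protein-coding and 5 lncRNA genes, and 24 had a mean of at least 1 TPM over the 9 libraries. In 29 of them the libraries of both conditions lay clear of those of Cond 1, and the exceptions were ACSS1 and HMX3. This separation largely follows from choosing DEGs of both contrasts. The share of all genes that lie clear in both was not counted. The genes nearest to the 2-fold threshold were ITIH5, with log2 fold changes against Cond 1 of -1.02 in Cond 2 and 1.17 in Cond 3, just inside, and MT1E, with 1.11 in Cond 2 and -0.998 in Cond 3, just outside.

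Among the 28 genes lower in Cond 2 and higher in Cond 3 were the developmental transcription factors OLIG3, whose values are given above, and POU3F4. POU3F4, a POU factor of brain and inner ear, had TPM values of 1.18, 1.27 and 1.16 in Cond 1, 0.206, 0.456 and 0.27 in Cond 2 and 6.12, 4.71 and 6.28 in Cond 3. Its log2 fold change against Cond 1 was -1.99 (adjusted p = 0.00243) in Cond 2 and 2.21 (adjusted p = 2.20e-05) in Cond 3. CXCL5 and CXCL6, ligands of CXCR2 that attract neutrophils, lie near each other on chromosome 4. CXCL5 had values of 18.3, 22.6 and 21.2 in Cond 1, 3.9, 3.81 and 4.77 in Cond 2 and 57.8, 75.5 and 48.3 in Cond 3, with log2 fold changes against Cond 1 of -2.40 (adjusted p = 4.57e-10) and 1.52 (adjusted p = 9.44e-09). CXCL6 had values of 5.16, 4.78 and 6.11 in Cond 1, 3.69, 2.57 and 2.03 in Cond 2 and 18.2, 22.1 and 20.3 in Cond 3.

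Receptors of this set included RAMP1, the partner of the receptor for the CALCA product CGRP, at 1.9, 3.51 and 0.744 in Cond 1, 0.345, 0.305 and 0.362 in Cond 2 and 6.26, 6.53 and 5.26 in Cond 3. TNFRSF11A, which encodes RANK, was at 3.39, 3.6 and 2.86 in Cond 1, 1.3, 1.25 and 0.831 in Cond 2 and 6.86, 7.86 and 7.48 in Cond 3. TNFRSF1B, a TNF receptor, was at 1.63, 1.74 and 2.39 in Cond 1, 1.26, 0.973 and 0.604 in Cond 2 and 5.62, 4.54 and 5.09 in Cond 3. Their log2 fold changes against Cond 1 in Cond 2 and Cond 3 were -2.59 and 1.55 for RAMP1, -1.62 and 1.15 for TNFRSF11A, and -1.10 and 1.37 for TNFRSF1B. Metabolic and stress genes of the set were ALDH1A1, ACSS1 and HSPB8. ACSS1, the mitochondrial acetyl-CoA synthetase, was at 0.731, 0.366 and 0.884 in Cond 1, 0.273, 0.161 and 0.43 in Cond 2 and 2.95, 3.13 and 2.58 in Cond 3, and the small heat shock protein HSPB8 at 8.19, 6.59 and 8.89 in Cond 1, 4.43, 3.86 and 4.06 in Cond 2 and 30.9, 32.7 and 31.8 in Cond 3. KLF9, a factor induced by glucocorticoid and thyroid hormone, was at 1.96, 1.72 and 1.58 in Cond 1, 0.65, 0.541 and 0.642 in Cond 2 and 3.75, 3.28 and 4.92 in Cond 3, and the nuclear lncRNA NEAT1, which builds paraspeckles, at 5.72, 4.08 and 5.16 in Cond 1, 2.83, 2.34 and 2.01 in Cond 2 and 10.4, 13.1 and 10.6 in Cond 3. In ACSS1 one library of Cond 2 overlapped Cond 1, and in the other genes of this paragraph the 3 conditions did not overlap. CXCL6, TNFRSF11A, TNFRSF1B, HSPB8, KLF9, NEAT1, GALNT5, SH2D6 and HHIP lie outside the rule for named genes and were chosen after their values were seen.

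GALNT5 and SH2D6 had no read in Cond 2. GALNT5, a glycosyltransferase, had 15 reads in Cond 1, 0 in Cond 2 and 135 in Cond 3 over 3 libraries each, at least 43.2-fold more in Cond 3 than in Cond 2 against a floor of 3 counts over the group. SH2D6 had 13, 0 and 59 reads in the same order, at least 18.9-fold more in Cond 3 than in Cond 2. The 3 genes of the other direction were HMX3, HHIP and the lncRNA AC090004.2. HMX3 had TPM values of 2.61, 0.89 and 0.538 in Cond 1, 9.63, 10.5 and 12.1 in Cond 2 and 0.114, 0.128 and 0.726 in Cond 3, with log2 fold changes against Cond 1 of 2.90 (adjusted p = 1.98e-05) in Cond 2 and -2.10 (adjusted p = 0.00722) in Cond 3. HHIP, an inhibitor of Hedgehog ligands, was at 0.608, 0.603 and 0.586 in Cond 1, 1.19, 1.1 and 1.9 in Cond 2 and 0.301, 0.229 and 0.205 in Cond 3.

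**Figure D5:**
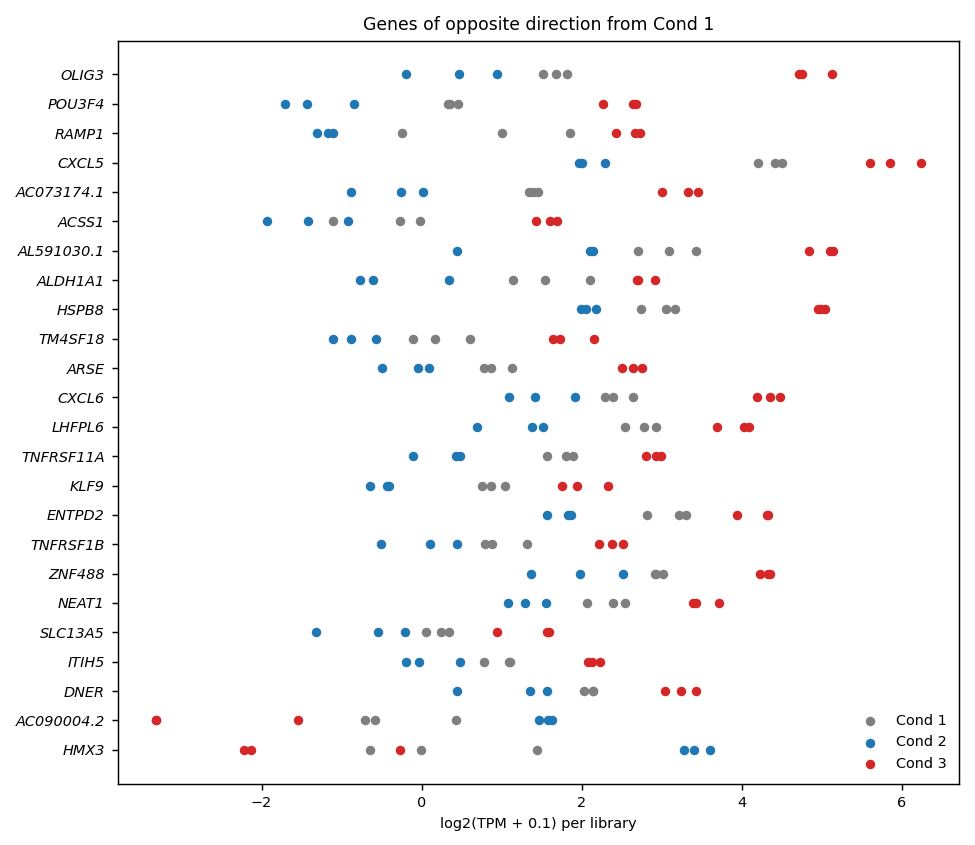
TPM per library on a log2(TPM + 0.1) axis for the 24 genes that moved in opposite directions from Cond 1 and had a mean of at least 1 TPM, with 1 point per library of Cond 1, Cond 2 and Cond 3. In the upper 22 genes the points of Cond 2 lie left and those of Cond 3 right of Cond 1, except that 1 library of Cond 2 overlaps Cond 1 in ACSS1. In HMX3 and AC090004.2 the order is turned around, and 1 library of Cond 3 overlaps Cond 1 in HMX3.

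The deposited TPM table also holds genes for which the count table has no row, among them the mitochondrial genes and many genes of chromosome 22. Of 639 such genes tested with limma on the log2(TPM + 1) scale, 33 passed the thresholds, 26 higher and 7 lower in Cond 3. ADM2, a peptide of the calcitonin family, had TPM values of 53.9, 48.3 and 56.2 in Cond 1, 62.5, 55.2 and 60.6 in Cond 2 and 18.3, 16 and 17 in Cond 3 (difference of log2(TPM + 1) -1.74, adjusted p = 1.04e-07 from limma). PDGFB, a growth factor chain, was at 10.7, 11.1 and 14.6 in Cond 2 and 2.69, 3.93 and 2.5 in Cond 3 (difference -1.70, adjusted p = 2.90e-05 from limma), and the sterol exporter ABCG1 at 2, 2.83 and 2.27 in Cond 2 and 7.41, 5.7 and 7.3 in Cond 3 (difference 1.21, adjusted p = 6.13e-04 from limma). In each of the 3 genes Cond 2 and Cond 3 did not overlap. Of 30 mitochondrial genes tested, 25 had higher values in Cond 3, 15 passed the adjusted p-value of 0.05 and the median difference was 0.70. The mitochondrial share of library 1 of Cond 2, given above, lay nearest to Cond 3. The genes ADM2 and PDGFB were chosen after their values were seen.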

How the data were processed

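RNA-Seq libraries of 201B7 cells were deposited with a table of raw read counts per gene and a table of TPM values. Per the submitters' processing notes, the tools were bcl2fastq 2.20.0.422, fastp 0.20.1, cutadapt 4.1, HISAT2 2.1.0 and featureCounts on GRCh38. Strand setting and treatment of multi-mapping reads are not given in the sources used here. The deposited counts covered 58575 genes after 5 broken lines were left out, and 2042 of the 60617 genes in the deposited TPM table had no count row. TPM computed by the authors corrects for length and depth.

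Counts of all 12 libraries were fitted together in edgeR 4.0.16 (R 4.3.3; TMM, filterByExpr, quasi-likelihood test, Benjamini-Hochberg adjustment). DEGs passed an adjusted p-value of 0.05 and changed more than 2-fold. Genes without a count row were tested with limma 3.58.1 on log2(TPM + 1). Groups followed the sample labels. Levels that were 0 in a whole group were bounded with 3 counts over the group, and intervals at 95% cover counting error only. On simulated data for Cond 3 against Cond 2 with 17365 genes, edgeR recovered 200 of 200 changed genes with 4 false calls. That simulation changed only 200 genes, whereas 1557 DEGs were called in the data. Its recovery was not split by expression level or size of change. It is therefore no measure of the calls in low transcripts or near the 2-fold threshold.

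The members and gene lists (28 lists) were chosen with earlier results of these data known. Genes named were NANOG, POU5F1 and SOX2, the 15 protein-coding DEGs with the largest change each way that had a mean of at least 1 TPM and no overlap, up to 10 genes of opposite direction each way, up to 8 members of a list by size of change, and any member of the pluripotency, NODAL, FGF, BMP, surface ectoderm, neural plate and amino acid response lists. Alternatives were DESeq2 1.42.0, upper-quartile normalization, other filters, limma on TPM, other thresholds, a replicate block, the 6 libraries alone and leaving out each library. Sequence shared with alternate haplotypes was counted in 31-base words over 261 alternate sequences. Results for some genes are not reported here.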

Additional observations from a re-analysis of the deposited data

Results flagged for a closer look

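Genes without a count row lie outside the count-based comparison and were examined through their TPM values. Of the 33 that differed between Cond 3 and Cond 2, 26 were higher and 7 lower in Cond 3. Of the 26 higher genes, 17 had all 3 libraries of Cond 3 above every library of Cond 1. Of the 7 lower genes, 2 had all 3 libraries of Cond 2 above every library of Cond 1. The genes were chosen by their difference between Cond 3 and Cond 2. The same shares over all 639 genes tested were not counted, so these counts are a description. The 2 genes raised in Cond 2 were KCNJ6, a potassium channel, at 0.981, 0.997 and 1.2 TPM in Cond 1, 2.99, 4.05 and 3.75 in Cond 2 and 0.474, 0.594 and 0.622 in Cond 3, and TNFRSF13C, a receptor of B cells, at 4.88, 3.87 and 3.85 in Cond 1, 6.97, 7.32 and 5.16 in Cond 2 and 2.73, 2.45 and 1.91 in Cond 3. Both were named after their values were seen.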

How the results depend on the processing

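The count of 1557 DEGs was 763 with genes of at least 1 TPM in all libraries, 553 and 744 with limma on log2(TPM + 1) and log2(TPM + 0.1), which tested the same smaller set of genes, and 6777 without a fold change threshold. It ranged from 1396 to 1513 when single libraries were left out. The 31 genes of opposite direction became 9, 5 and 7 in the first 3 settings, 436 without a fold change threshold and 97 with a fold change above 1.5, and from 21 (without Cond 1 replicate 3) to 30 when single libraries were left out. Replicate numbers did not pair the samples (correlations of deviations between same-numbered libraries -0.0061, 0.017 and 0.0024), and with the replicate number as a block there were 1545 DEGs, 33 genes of opposite direction and a NANOG log2 fold change of -1.07. NANOG lay between -1.03 and -1.14 without single libraries. Among the gene lists, members lower in Cond 3 went with genes of at least 1 TPM in all libraries from 15 of 23 to 8 of 14 (neural plate), from 9 of 18 to 3 of 7 (surface ectoderm, 2 in both limma settings), from 6 of 9 to 2 of 4 (zinc), from 2 of 7 to 1 of 4 (naive pluripotency) and from 1 of 8 to 0 of 2 (mesendoderm). Members higher went from 5 of 18 to 3 of 10 (WNT) and from 6 of 16 to 3 of 10 (retinoic acid). In both limma settings they also went from 17 of 49 to 11 of 49 (G2/M), from 8 of 20 to 5 of 16 (ephrins, 5 without Cond 3 replicate 1 too) and from 4 of 9 to 2 of 4 (fibroblast markers). In every other list the number of members called in the main direction stayed within 1.5 times under each alternative run. Of 116 genes named and tested, 109 kept direction and side of the threshold in every alternative run. The sign turned in FOS (-0.097 and -0.12 with limma on log2(TPM + 1) and log2(TPM + 0.1), -0.57 to 0.996 without single libraries, the lowest without Cond 3 replicate 1), KRT19 (0.0096 with upper-quartile normalization, -0.048 to 0.0048 without single libraries), COL3A1 (-0.42 to 0.30 without single libraries) and SOX2 (-0.046 in both limma settings, -0.0057 to 0.025 without single libraries), none of which had passed the test. FOS passed the test without the filter on low counts (0.51, adjusted p = 8.39e-07). ID2 gained the call without that filter and without Cond 2 replicate 3, and SLC38A2 lost it in both limma settings. FGF2 lost it with upper-quartile normalization, without the filter, with the TPM filter, with the 6 libraries alone and when any of 4 single libraries was left out (adjusted p between 0.058 and 0.162). The cause was not tested. Low transcripts rest on few reads, which limits their precision.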
